A study of Drosophila melanogaster with 12 samples.

Results

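The core of the Ras/MAPK pathway was followed here through 10 genes, chosen by name for their place in the cascade. The choice was made with earlier results of these data known. The deposited transcript estimates cover 13825 genes of Drosophila melanogaster. The members were the small GTPase gene Ras85D, the kinase genes Raf, Dsor1 and rl, the scaffold genes ksr and cnk, the adaptor gene drk, the exchange factor gene Sos, the phosphatase gene csw and the GTPase activating protein gene Gap1, which the annotation used here lists as RasGAP1. All 10 had counts in every library and all 10 passed the filter on low counts, which kept 9012 genes.

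RNA was sequenced from larval salivary glands in 12 libraries, in 4 groups of 3, dissected 96 h after egg deposition (AED) from larvae reared at 29°C. By the labels all larvae came from mothers carrying w1118, BxGal4 and the reporter Drs-GFP. The study's own list of crosses for its transcriptome panels gives this reporter to the mothers of lglRNAi;RasV12 larvae only, so that the sources disagree on the reporter in w1118- and RasV12-glands. BxGal4 (BxMS1096-GAL4) drives UAS constructs throughout the secretory epithelium of the gland. Crossed to w1118 fathers these gave the control (w1118-glands), to w1118;;UAS-RasV12 fathers the RasV12-glands, and to fathers that carried UAS-l(2)glRNAi together with UAS-RasV12 the lglRNAi;RasV12-glands (below, entire glands with RasV12 alone and with both constructs). The fourth group was a dissected piece of lglRNAi;RasV12-glands only, called the posterior part in the labels and the proximal part (PP) by the study, so that genotype and gland part changed together in its comparison with w1118 and cannot be told apart. Each library pooled glands of many larvae, and p-values measure the spread between these pools.

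The protein Ras85D is a molecular switch at the inner face of the cell membrane. An activated receptor tyrosine kinase recruits the adaptor Drk, which brings the exchange factor Sos to load Ras with GTP, while Gap1 speeds the hydrolysis of that GTP and so turns the switch off. GTP-bound Ras engages the kinase Raf, which phosphorylates the kinase Dsor1 (the fly MEK), which in turn phosphorylates Rolled (the product of rl, the fly ERK). Ksr and Cnk hold these kinases together, and Corkscrew (the product of csw, the fly SHP2) is a phosphatase that transmits the receptor signal. RasV12 is a mutant form of the GTPase that stays in its active state.

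The libraries held 27584224 to 73043536 estimated counts, with PP replicate 2 the deepest, and the 3 replicates of each group correlated at 0.978 to 0.993 across genes. The 20 most abundant genes of a library took 39.8 to 47.3% of its counts in w1118-glands and 19.3 to 24.1% in the other groups. Markers of the salivary gland (13 genes, among them the glue genes Sgs1 to Sgs8) summed to 331572 to 513602 CPM (counts scaled to a fixed library total) in control glands and to 61990 to 109860 CPM in the groups with RasV12, and none of them was at the detection floor of 3 counts in all replicates of a group. Not all 13 followed this sum. In the PP ng1, ng2 and ng3 were higher than in control (log2 1.69, 1.86 and 1.22). The gene fkh was higher in lglRNAi;RasV12-glands and the PP (log2 0.48 and 0.43). Markers of the fat body (6 genes) summed to 40365 to 84938 CPM in control glands, 16860 to 26117 in RasV12-glands, 25154 to 33573 with both constructs and 7681 to 8890 in the PP, and none of the 6 was at the floor in all replicates of a group. Muscle markers (7 genes) ranged from 15.3 to 81.4 CPM within the PP. The part of these shifts in the results on the 10 genes was not tested.

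Counts per library total (CPM) were scaled by the trimmed mean of M-values (TMM), which sets libraries on a common level by the bulk of their genes, and a gene was said to rise or fall where its adjusted p in edgeR's quasi-likelihood test (Benjamini-Hochberg over all 9012 genes) was at most 0.05. The 3 comparisons with w1118-glands share the same control libraries. In bulk RNA, more RNA per cell and more cells of one type cannot be told apart.

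Ras85D was far higher wherever the RasV12 construct was present. The gene is on 3R, minus strand (9510561 to 9513067, dm6 coordinates) and has a single transcript in the files, and the counts include reads from the UAS-RasV12 transgene, which the estimates do not separate from the endogenous gene. Its level was 75.1, 54.3 and 62.4 CPM in the 3 w1118 libraries and 3117, 2766 and 3454 CPM in the RasV12 libraries. In lglRNAi;RasV12-glands it was 2042, 2426 and 2524 CPM, and in the PP 2867, 2411 and 2733 CPM. The lowest library with the construct (2042 CPM) thus stood far above the highest control (75.1 CPM), and the 9 libraries with it lay between 2042 and 3454 CPM.

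On the log2 scale Ras85D rose by 5.61 ± 0.17 (SE, n = 3 per group, adjusted p = 2.79e-09) in RasV12-glands, by 5.19 ± 0.16 (adjusted p = 2.70e-09) with both constructs and by 5.39 ± 0.16 (adjusted p = 2.45e-09) in the PP. These values are a check that the libraries carry what their labels say, and the share of endogenous Ras85D in them was not measured. Between lglRNAi;RasV12- and RasV12-glands the log2 difference was -0.42 (95% interval -0.71 to -0.12), and it did not pass the test (adjusted p = 0.0667, and 0.0163 to 0.213 over the alternatives tried). The 3 lglRNAi;RasV12 libraries nevertheless all lay below the 3 RasV12 libraries, an order without overlap that 36.7% of all genes showed in one direction or the other in this comparison. DESeq2 passed it (adjusted p = 0.0163), as did a fit of these 6 libraries alone (0.0482). The tumour suppressor gene l(2)gl, the target of the RNAi construct, was at 140 to 189 CPM in control glands, 244 to 286 in RasV12-glands, 148 to 191 with both constructs and 208 to 282 in the PP, and it was not below control in either group labelled with its RNAi construct. Its log2 difference from w1118-glands was 0.71 (adjusted p = 0.00160) with RasV12 alone, 0.05 (0.810) with both constructs and 0.59 (0.00399) in the PP. Against RasV12-glands it was at -0.66 (adjusted p = 0.0132) in the entire lglRNAi;RasV12-glands and at -0.12 (0.540) in the PP, so the presence of the RNAi construct rests on the labels.

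**Figure D1:**
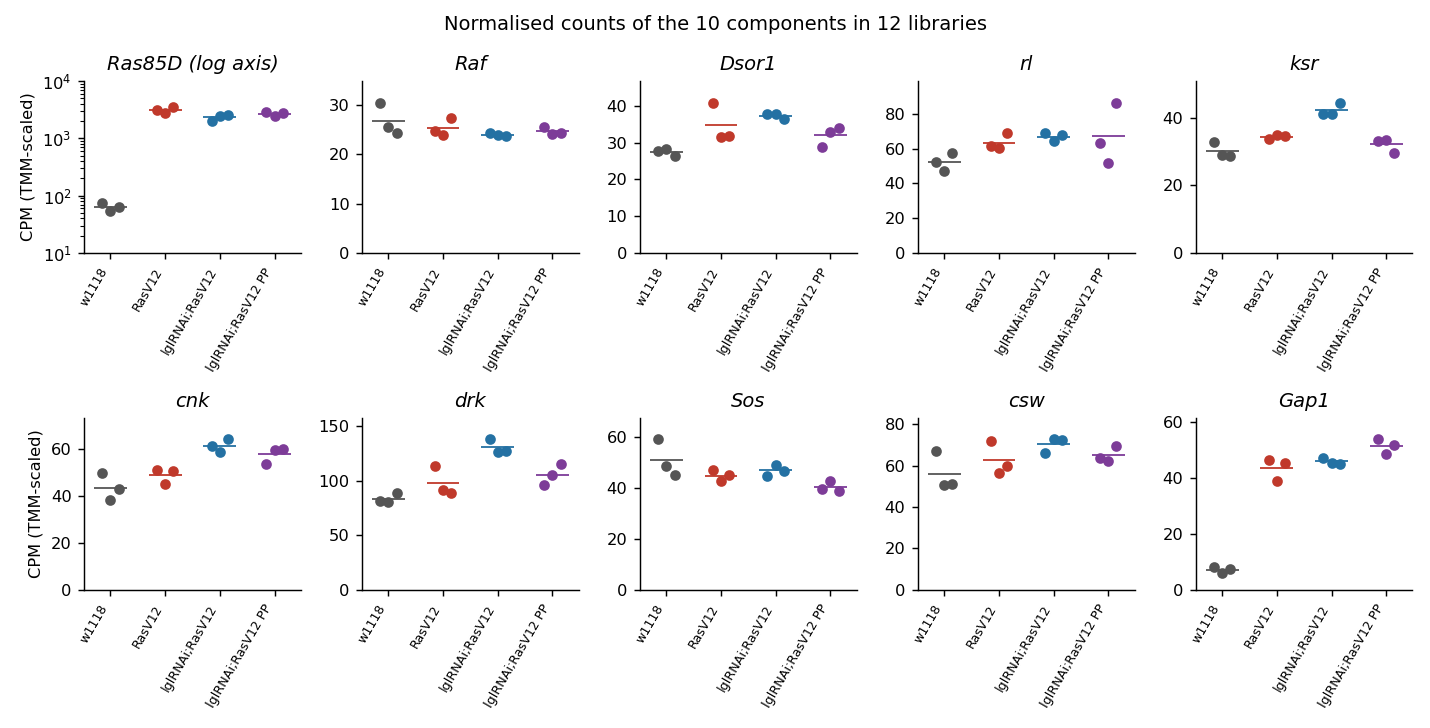
Normalised counts (TMM-scaled CPM, vertical axis, logarithmic for Ras85D only) of the 10 genes in the 12 libraries, by group; points are libraries and bars group means. Ras85D and Gap1 stood apart from control in all 3 groups with RasV12 (Gap1 at 5.98 to 8.20 CPM in w1118 and 39.0 to 54.0 CPM elsewhere). The other 8 genes differed less from control, by log2 differences of -0.34 to 0.65.

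Gap1 was the other member with a large difference. It encodes the GTPase activating protein that returns Ras to its GDP-bound state, and lies on the minus strand of 3L (9839093 to 9855285). Its level was 8.20, 5.98 and 7.32 CPM in control glands against 46.5, 39.0 and 45.5 CPM with RasV12 alone. The lglRNAi;RasV12 libraries stood at 47.3, 45.6 and 45.1 CPM and the PP libraries at 54.0, 48.6 and 52.0 CPM. No control library came near any library with RasV12.

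Gap1 rose 6.12-fold in RasV12-glands (log2 2.61 ± 0.12, adjusted p = 4.68e-08), 6.45-fold in lglRNAi;RasV12-glands (log2 2.69 ± 0.12, adjusted p = 3.17e-08) and 7.22-fold in the PP (log2 2.85 ± 0.12, adjusted p = 1.15e-08). A difference of this size placed it at the percentiles 96.8, 97.0 and 96.4 of all 9012 log2 differences in these comparisons. The call held under all 12 alternatives in each comparison. Among the 3 groups with RasV12 its level did not pass the test of a difference (log2 0.08 with a 95% interval of -0.16 to 0.31 between lglRNAi;RasV12- and RasV12-glands, and 0.24 with an interval of 0.01 to 0.47 between the PP and RasV12-glands, adjusted p = 0.0948). With the replicate number as a block, although no pairing by number was established, Gap1 passed in the last comparison (adjusted p = 0.0458).

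With Ras85D and Gap1 included, 3 of the 10 members rose in RasV12-glands and none fell, where 25.8% of all genes tested rose and 23.1% fell. In lglRNAi;RasV12-glands 7 rose and none fell, against 28.2% and 23.5% of all genes. In the PP 4 rose and 1 fell, against 33.5% and 25.2% of all genes. With a log2 difference of at least 1 as a further demand, Ras85D and Gap1 were the members left in each of the 3 comparisons, and 11.3%, 12.1% and 15.7% of all genes rose by that much. The 3 libraries of the group did not overlap the 3 control libraries for 5 members in RasV12-glands (57.3% of all genes), for 7 with both constructs (58.9%) and for 6 in the PP (64.4%). All these counts include Ras85D, whose reads hold those of the transgene. Of the 9 members without it, 2 rose in RasV12-glands and 6 with both constructs, and none fell. In the PP 3 of the 9 rose and 1 fell. Gap1 was the 1 member of these 9 with a log2 difference of at least 1 in each comparison.

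Over the 9 members other than Ras85D the median log2 difference from w1118-glands was 0.19 in RasV12-glands, 0.44 with both constructs and 0.22 in the PP, beside medians of -0.00, 0.02 and 0.10 over all genes. These sizes depend on the scaling. With the plain library totals in place of TMM the median over all genes moved up by 0.43, 0.41 and 0.47, and of the genes called, 84.3%, 84.9% and 82.8% were higher instead of 52.8%, 54.5% and 57.1%. All differences below are therefore read relative to the bulk of genes, as TMM sets them.

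**Figure D2:**
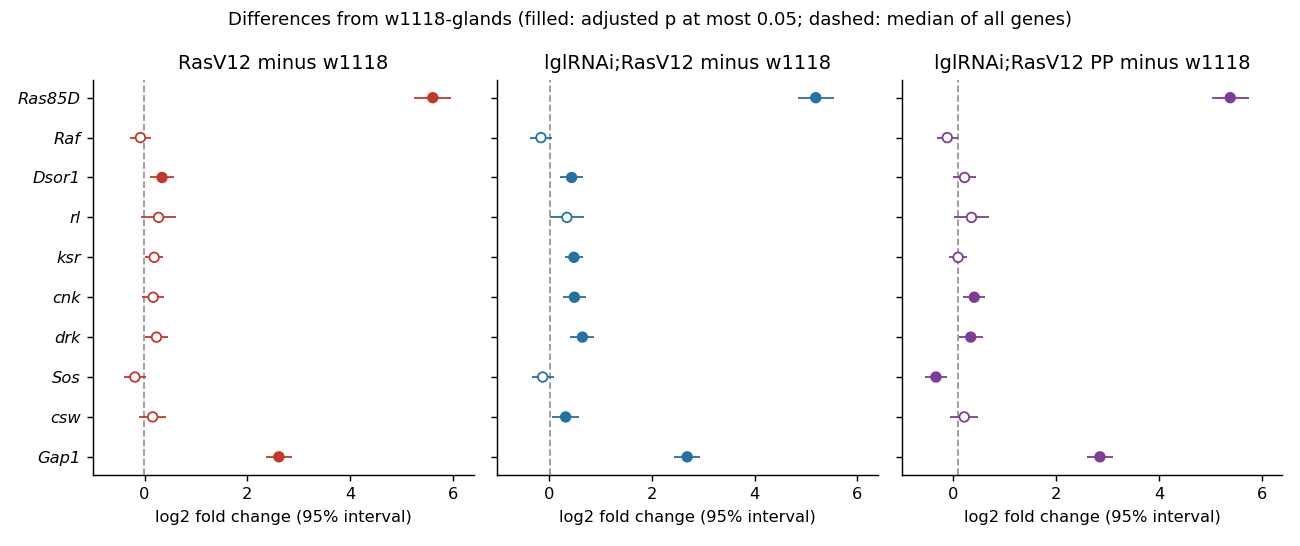
Log2 fold change (horizontal axis) of each of the 10 genes from w1118-glands in RasV12-glands, lglRNAi;RasV12-glands and the PP; points are estimates from 3 libraries a group, lines 95% intervals, filled points adjusted p at most 0.05, and the dashed line the median of all 9012 genes. Ras85D (5.19 to 5.61) and Gap1 (2.61 to 2.85) lay far to the right, and the other 8 genes lay between -0.34 and 0.65.

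The 3 kinases that pass the signal from Ras to the nucleus differed little from control. Raf, the kinase that Ras engages first, lies on X (2295466 to 2343870). It was at 30.5, 25.5 and 24.3 CPM in control glands, 24.7, 23.9 and 27.4 CPM with RasV12 alone, 24.4, 23.9 and 23.8 CPM with both constructs and 25.6, 24.1 and 24.3 CPM in the PP. The groups overlapped throughout, and the estimates were near 0. The log2 differences from control were -0.08 (95% interval -0.28 to 0.13), -0.15 (-0.36 to 0.05) and -0.12 (-0.32 to 0.09), so that the intervals under TMM leave room for a fall of up to 0.36 and a rise of up to 0.13. With library totals the sign of Raf turned to 0.36, 0.26 and 0.36, each past the threshold.

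Dsor1, which encodes the MAPK kinase, lies on X (9247342 to 9250037). It stood at 27.8, 28.2 and 26.4 CPM in control glands and at 40.9, 31.6 and 31.9 CPM with RasV12 alone. In lglRNAi;RasV12-glands it was at 37.9, 37.7 and 36.5 CPM, and in the PP at 29.0, 33.0 and 33.9 CPM. All 9 libraries with RasV12 thus exceeded the 3 controls, although RasV12 replicate 1 stood well above its 2 companions. Dsor1 rose by 0.34 (SE 0.11, adjusted p = 0.0184) in RasV12-glands and by 0.44 (adjusted p = 0.00415) in lglRNAi;RasV12-glands. In the PP its log2 difference was 0.22 (95% interval -0.01 to 0.45, adjusted p = 0.0946). The call in RasV12-glands ended without RasV12 replicate 1 (0.21, adjusted p = 0.0881), without w1118 replicate 3 (0.31, adjusted p = 0.0651) and in a fit of those 6 libraries alone (adjusted p = 0.0514), in a range of 6.23e-05 to 0.0881 over all alternatives.

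The MAP kinase gene rl lies on 2R (1071462 to 1125927), in a long gene with 7 transcripts in the files. Its level was 52.4, 47.5 and 57.8 CPM in control glands, 61.3, 60.1 and 69.2 CPM with RasV12 alone and 68.8, 64.4 and 67.6 CPM with both constructs. In the PP it spread from 51.9 CPM in replicate 2 over 63.1 in replicate 1 to 86.6 in replicate 3, the widest spread of any member other than Ras85D in any group. The summed muscle markers of PP replicates 1, 2 and 3 (50.5, 15.3 and 81.4 CPM) stood in the same order. In w1118 replicates 1, 2 and 3 these sums (79.3, 82.0 and 64.3 CPM) stood in the opposite order to rl. The part of muscle in the spread of rl was not tested. The RasV12 and lglRNAi;RasV12 libraries all lay above control, and the PP libraries overlapped it. The log2 differences were 0.27 (adjusted p = 0.163), 0.35 (0.0772) and 0.35 (0.0675), none past the threshold. Replicates of one number deviated together weakly (r 0.18 to 0.22) in lglRNAi;RasV12- and w1118-glands. In the comparison of these groups, the fit with the replicate number as a block passed rl (log2 0.36, adjusted p = 0.0250) and brought the members that rose from 7 to 8. Without PP replicate 2 rl passed in the PP as well (log2 0.51, adjusted p = 0.00819), in a range of 0.00141 to 0.360 over the alternatives.

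By their means both scaffold genes were highest in lglRNAi;RasV12-glands, where cnk overlapped the PP. The gene ksr encodes the kinase suppressor of Ras, which gathers Raf, Dsor1 and Rolled, and lies on 3R (5478390 to 5483906). It was at 32.9, 29.0 and 28.6 CPM in control glands and at 33.7, 34.9 and 34.5 CPM with RasV12 alone. In lglRNAi;RasV12-glands its 3 libraries reached 41.0, 41.1 and 44.5 CPM, above every library of the other groups, and in the PP they were at 33.2, 33.5 and 29.7 CPM. It rose by 0.49 (SE 0.08, adjusted p = 0.000406) in lglRNAi;RasV12-glands, while its differences of 0.19 (adjusted p = 0.0743) with RasV12 alone and 0.09 (adjusted p = 0.350) in the PP did not pass. Of its exonic bases 15.2% are shared with Hcs on the opposite strand, and the TruSeq RNA library kit does not mark strand, so that reads from these bases cannot be told apart.

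The gene cnk encodes the scaffold that binds Ksr and Raf at the membrane and lies on 2R (17413970 to 17420007). Its libraries were at 49.8, 38.3 and 43.0 CPM in control glands, 51.2, 45.3 and 50.9 CPM with RasV12 alone, 61.4, 59.1 and 64.4 CPM with both constructs and 53.9, 59.6 and 60.2 CPM in the PP. The last 2 groups lay above control without overlap, and RasV12-glands overlapped it. It rose by 0.50 (SE 0.10, adjusted p = 0.00142) with both constructs and by 0.41 (adjusted p = 0.00404) in the PP, and its difference in RasV12-glands was 0.17 (95% interval -0.05 to 0.39, adjusted p = 0.180).

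The adaptor gene drk gave the largest of the small differences. Drk links phosphorylated receptors to Sos, and its gene lies on 2R (13495222 to 13502841). It was at 80.9, 79.9 and 88.4 CPM in control glands and at 113, 91.6 and 88.4 CPM with RasV12 alone. In lglRNAi;RasV12-glands it reached 138, 126 and 127 CPM, and in the PP 95.5, 105 and 115 CPM. Both groups with the RNAi construct lay above control. It rose by 0.65 (SE 0.11, adjusted p = 0.000340) with both constructs and by 0.34 (adjusted p = 0.0163) in the PP, and its 0.23 (adjusted p = 0.0883) in RasV12-glands did not pass. The call in the PP ended without w1118 replicate 2 (adjusted p = 0.0554) or PP replicate 3 (0.0665), in a range of 6.31e-05 to 0.0665, and 19.6% of the exonic bases of drk are shared with mars on the opposite strand, with the same limit as for ksr.

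Sos, the exchange factor that loads Ras with GTP, did not share the rise of its adaptor. The gene lies on 2L (13813816 to 13819824) and has 1 transcript in the files. Its level was 59.1, 48.7 and 45.2 CPM in control glands, 46.9, 42.5 and 45.1 CPM with RasV12 alone, 44.8, 49.1 and 46.8 CPM with both constructs and 39.6, 42.6 and 38.8 CPM in the PP. Only the PP libraries were all below control. Sos fell by 0.34 (SE 0.10, adjusted p = 0.0109) in the PP, while -0.19 (95% interval -0.40 to 0.03) in RasV12-glands and -0.12 (-0.33 to 0.09) in lglRNAi;RasV12-glands did not pass. With library totals the 3 differences turned to 0.14, 0.25 and 0.30 in the PP, RasV12-glands and lglRNAi;RasV12-glands.

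The phosphatase gene csw, on X (2094234 to 2115701), was at 67.1, 50.6 and 51.1 CPM in control glands and at 71.9, 56.5 and 59.9 CPM with RasV12 alone. It was at 66.0, 72.9 and 72.5 CPM with both constructs and at 63.7, 62.2 and 69.6 CPM in the PP. Replicate 1 was the highest library in both w1118- and RasV12-glands, and all 3 other groups overlapped control. It rose by 0.33 (SE 0.12, adjusted p = 0.0428) in lglRNAi;RasV12-glands, and its 0.16 (adjusted p = 0.307) with RasV12 alone and 0.21 (adjusted p = 0.156) in the PP did not pass. That call ended with DESeq2 (adjusted p = 0.0707), in a fit of those 6 libraries alone (0.0735) and without w1118 replicate 2 or 3 (0.164 and 0.157) or lglRNAi;RasV12 replicate 2 or 3 (0.114 and 0.116), in a range of 8.84e-05 to 0.164.

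The control library w1118 replicate 1 held the highest control value of Raf, ksr, cnk, Sos, csw, Gap1 and Ras85D, and it also had the largest sum of gland markers (513602 CPM). Without it 6 members rose in RasV12-glands instead of 3, with ksr (log2 0.25, adjusted p = 0.0268), cnk (0.27, 0.0348) and csw (0.30, 0.0435) added. Their ranges over all alternatives were 2.80e-05 to 0.224, 0.000108 to 0.559 and 0.000532 to 0.793.

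Adding the l(2)gl RNAi construct to RasV12 was addressed by setting lglRNAi;RasV12- against RasV12-glands. By the study's list of crosses the Drs-GFP reporter would change together with the RNAi construct here, and the 2 cannot then be told apart. Here 2 of the 10 members rose and none fell, where 7.18% of all genes rose and 5.12% fell. The scaffold gene ksr was higher by 0.30 (SE 0.08, adjusted p = 0.0347) and the adaptor gene drk by 0.42 (SE 0.11, adjusted p = 0.0264), while cnk was at 0.33 (adjusted p = 0.0522). In ksr, drk and cnk the 3 lglRNAi;RasV12 libraries lay above the 3 RasV12 libraries, and with Ras85D, where they lay below, 4 members did not overlap. For the remaining members the 95% intervals reached from -0.28 to 0.43 (Raf, Dsor1, Sos, csw, rl and Gap1). Both calls rested on the full set of libraries: ksr did not pass without any 1 of the 6 libraries (0.0524 to 0.135), and drk passed in that set only without RasV12 replicate 1, so that 0 or 1 member remained. DESeq2 passed 4 members (Ras85D, ksr, cnk and drk), with adjusted p over all alternatives of 0.00913 to 0.135 for ksr and 0.00814 to 0.106 for drk.

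Between the PP and the entire lglRNAi;RasV12-gland, which by their labels share genotype, none of the members rose and 2 fell, beside 20% and 17.7% of all genes. The falls were again in ksr (-0.39, SE 0.08, adjusted p = 0.00303) and drk (-0.31, SE 0.11, adjusted p = 0.0363). The libraries did not overlap in either gene, nor in Dsor1, Sos and Gap1, which makes 5 members beside 51.6% of all genes, and the same lglRNAi;RasV12 libraries served in both comparisons. Fat body marker sums were lower in the PP too (7681 to 8890 against 25154 to 33573 CPM). Those of trachea (21.6 to 30.8 against 8.27 to 13.4 CPM) and of imaginal ring and duct (68.9 to 85.2 against 36.9 to 46.9 CPM) were higher without overlap, and the tracheal genes trh, serp and verm passed the test (log2 1.21, 1.33 and 1.28). The ring and duct sum was mostly the gene eyg (65.65 to 77.22 against 34.1 to 40.65 CPM), and its other genes hth, dac and esg overlapped. The part of these markers in the falls was not tested. The call of ksr held under all 12 alternatives, whereas drk did not pass without lglRNAi;RasV12 replicate 1, 2 or 3 or PP replicate 1 or 2 (0.0644 to 0.142), with library totals (0.106) or with no filter (0.0536), in a range of 0.0149 to 0.142.

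Between the PP and RasV12-glands edgeR passed 0 of the 10 members, where it passed 37.5% of all genes, and 3 members did not overlap, beside 52.4% of all genes. At an unadjusted p under 0.05 it had 2, and DESeq2 passed 0 as well. The log2 differences ran from -0.22 (Ras85D) to 0.24 (Gap1 and cnk).

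Levels of different genes were compared in TPM, the transcript share that kallisto gives after division by transcript length. TPM sums to the same total in each library and is not corrected for the large share of gland secretion transcripts in w1118-glands, so the order within a group is given and not the change between groups. In w1118-glands drk came first with 41.0 ± 4.4 TPM (SD, n = 3), apart from Ras85D with 22.7 ± 1.1 and rl with 21.1 ± 2.9, which overlapped. Dsor1 (11.9 ± 1.4) and csw (7.53 ± 0.47) followed, each separate from its neighbours. Sos (5.83), Raf (5.43), ksr (5.23) and cnk (5.21) overlapped from one to the next, and Gap1 was last with 0.925 ± 0.066 TPM. Gap1, the negative regulator among the 10, was thus the least abundant of them in control glands, and the adaptor drk the most abundant.

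In RasV12-glands Ras85D, transgene reads included, came first with 1784 ± 255 TPM and drk second with 75.2 ± 13.4. The order drk, rl, Dsor1, csw was the same in all 4 groups, with separate ranges between each neighbouring pair once Ras85D is set aside. Gap1 had moved to 9.08 ± 1.13 TPM, where it overlapped with cnk (9.40) above and Raf (8.27) below. In lglRNAi;RasV12-glands Gap1 (10.1 ± 0.6) ranked above Sos (9.04) and Raf (8.27) without overlap. In the PP it stood at 9.76 ± 0.95 TPM, between cnk and ksr (8.32), both of which it overlapped, and Sos was last with 6.69 ± 0.05.

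**Figure D3:**
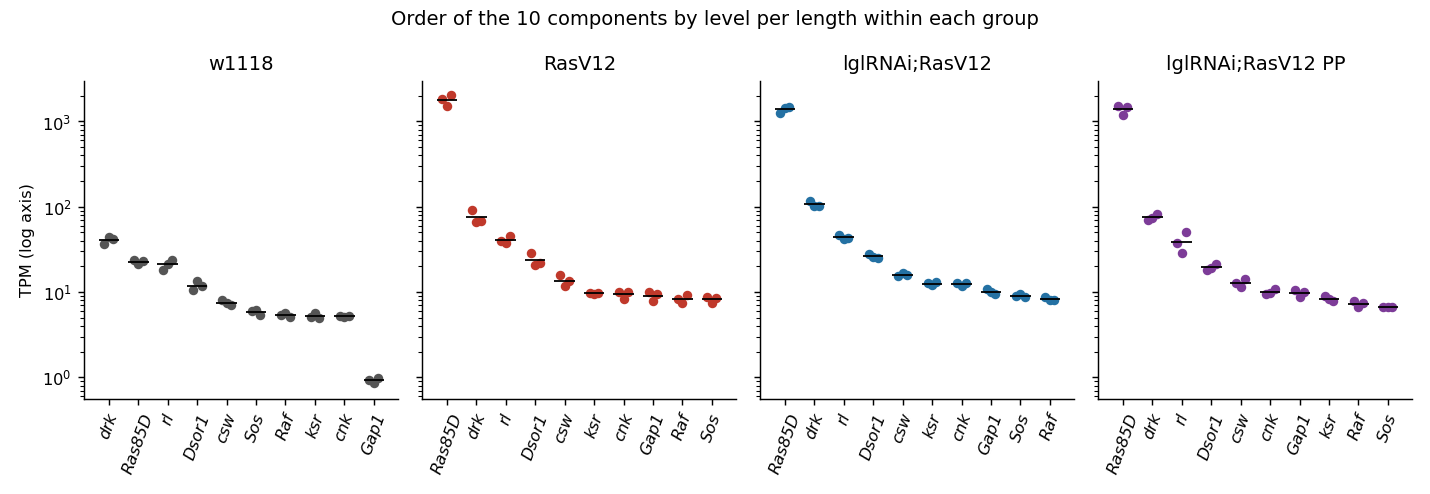
Level per length (TPM, logarithmic vertical axis) of the 10 genes in each group, ordered by group mean; points are the 3 libraries and bars the means. Gap1 was last in w1118-glands (0.925 TPM) and stood among Raf, Sos, ksr and cnk (6.69 to 12.6 TPM) in the 3 other groups, while the order drk, rl, Dsor1, csw did not change.

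Ratios of TPM within a library do not depend on the scaling between libraries. Ras85D to Raf was 4.19 ± 0.39 (SD, n = 3) in w1118-glands, 215 ± 11 in RasV12-glands, 170 ± 21 with both constructs and 190 ± 13 in the PP. No library with the construct was below 146.5 in this ratio. The kinases below Raf kept closer to it and to each other than Ras85D did. The ratio of Dsor1 to Raf was 1.95 to 2.35 in w1118-glands, 2.43 to 3.48 in RasV12-glands, 3.10 to 3.23 with both constructs and 2.35 to 2.85 in the PP. That of rl to Dsor1 was 1.59 to 2.06, 1.38 to 2.03, 1.60 to 1.76 and 1.48 to 2.38 in the same order, with all 4 groups overlapping. That of rl to Raf was 3.33 to 4.68 in w1118-glands and 4.22 to 6.80 in the PP, which overlapped. It was 4.81 to 4.97 in RasV12-glands and 5.11 to 5.44 with both constructs, both above control without overlap. From Raf to Dsor1 to rl the levels therefore rose at each step of the cascade in each of the 12 libraries.

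The ratio of the 2 opposing regulators of Ras among the members, chosen after its values were seen, separated control from all other libraries. Gap1 to Sos was 0.138 to 0.184 in w1118-glands, so that Sos was several times more abundant than Gap1. It was 1.05 to 1.13 in RasV12-glands, 1.06 to 1.20 with both constructs and 1.30 to 1.56 in the PP. The transcripts of Gap1 thus outnumbered those of Sos in all 9 libraries with RasV12. Regulators of Ras outside the members were not part of this ratio. Of these, vap stood at 12.5 to 14.8 TPM in w1118-glands, above Sos (5.35 to 6.18), and Nf1 at 1.15 to 1.25, below it. The adaptor to exchange factor ratio (drk to Sos), likewise chosen after the fact, was 6.06 to 7.86 in w1118-glands, 8.10 to 10.3 in RasV12-glands, 10.9 to 13.1 with both constructs and 10.4 to 12.2 in the PP. Control lay below all other libraries in this ratio too. The same held for ksr to Raf (0.93 to 0.98 against 1.04 to 1.64) and cnk to Raf (0.89 to 1.04 against 1.09 to 1.58), also chosen after the fact. How many ratios of other genes separate control in this way was not counted. In the PP ksr by itself did not pass edgeR's test against control (log2 0.09, adjusted p = 0.350).

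Most members were carried by 1 main transcript, as far as the estimates split overlapping transcripts. Raf-RA held 96.6 to 99.7% of Raf, cnk-RA 94.3 to 99.4% of cnk and csw-RA 89.5 to 94.0% of csw in all 12 libraries. For drk the main form was drk-RC with 63.6 to 76.9%, and drk-RD went from 4.56 to 6.96% in w1118-glands to 9.48 to 13.5% in the 9 libraries with RasV12. Dsor1-RA held 49.4 to 57.6% of Dsor1 in w1118-glands, 58.4 to 60.8% in RasV12-glands, 61.1 to 74.8% with both constructs and 63.3 to 75.9% in the PP. The split of ksr was less even, with ksr-RA at 45.6 to 88.0% over the 12 libraries. Its transcript ksr-RD held 2.78 to 23.3% in w1118-glands, 15.8 to 32.3% in RasV12-glands and 31.2 to 36.9% with both constructs. In the PP ksr-RD spread from 0.00636 to 37.7%. For Gap1 the transcripts RA and RC received identical estimates in every library, and they have the same length in the files, while RB held 19.9 to 34.7%.

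The transcript rl-RI separated the groups by the labelled RNAi construct, which the sum over rl did not. It was at 0.08 to 0.36 TPM in w1118-glands and at 0 to 0.50 TPM in RasV12-glands. In lglRNAi;RasV12-glands it was at 3.67 to 4.50 TPM and in the PP at 2.25 to 6.62 TPM, without overlap. Its share of rl was at most 1.51% in the 6 libraries without the construct and 7.89 to 13.0% in the 6 with it. The main transcripts rl-RE (46.5 to 69.0%) and rl-RD (20.2 to 29.6%) kept the greater part of the gene in all 12 libraries. These are estimates without their own error, no test was made, and rl-RI was singled out after its values were seen. By the study's list of crosses the Drs-GFP reporter and the fathers' stock would change together with the construct here, and these cannot then be told apart.

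**Figure D4:**
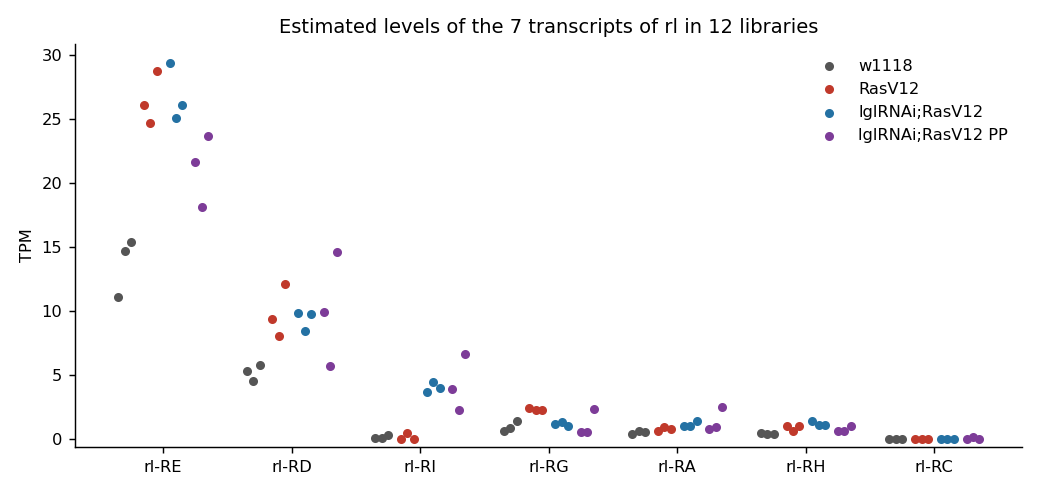
Estimated TPM (vertical axis) of the 7 transcripts of rl, with 1 point per library and colours for the 4 groups. The transcript rl-RI stood at 2.25 to 6.62 TPM in the 6 libraries labelled with the l(2)gl RNAi construct and at no more than 0.50 TPM in the other 6, while rl-RE and rl-RD made up most of the gene everywhere.

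Further lists of the pathway were counted in the same comparisons with w1118-glands, and each count stands beside the shares of all genes given above (25.8%, 28.2% and 33.5% higher and 23.1%, 23.5% and 25.2% lower in RasV12-, lglRNAi;RasV12-glands and the PP). A list of 18 Egfr ligands, feedback genes and nuclear outputs had 16 members tested, of which 15 rose and 1 fell in RasV12-glands, 14 rose and none fell with both constructs and 16 rose in the PP, with medians of 2.89, 2.83 and 2.20. The fall was that of the ligand gene Krn (-0.40), named after its values were seen. The gene aos, which encodes a secreted inhibitor of Egfr signalling, went from 3 to 8 counts per w1118 library (0.131 to 0.384 CPM) to 13.6 to 22.7 CPM in the 9 others, with log2 rises of 6.38, 6.64 and 6.54. The ETS factor gene Ets21C rose by 4.97, 4.90 and 5.32, and Mkp3, which encodes the phosphatase that switches off Rolled, by 3.93, 4.09 and 4.85 (adjusted p of at most 0.000141 for both genes in all 3 comparisons). Mkp3 was at 1.05 to 1.50 CPM in control and 18.6 to 45.5 CPM in the other groups.

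Among 20 further regulators and adaptors, all tested, 11 rose and none fell in RasV12-glands, 11 rose and 3 fell with both constructs and 13 rose and 5 fell in the PP, with medians of 0.35, 0.37 and 0.36. The falls were those of the chaperone genes Hsp83 and Cdc37 and of Src64B in both RNAi groups, and of Sur-8 and ave in the PP, again named after the fact. Apart from Mkp3, the largest rises were those of dos, a docking protein that binds Csw (2.01, 2.29 and 2.75, adjusted p = 0.00298, 0.00127 and 0.000295), and of the adaptor gene Shc (1.70, 1.68 and 1.32, adjusted p of at most 7.27e-05). Control values of dos (4.22 to 9.02 CPM) lay below all others, although lglRNAi;RasV12-glands spread from 15.8 to 57.4 CPM.

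Of 9 receptor tyrosine kinase genes 6 were tested. In RasV12-glands 2 rose and none fell, in lglRNAi;RasV12-glands 2 rose and 2 fell, and in the PP 2 rose and 1 fell, the rises being near the share of all genes. The receptor gene sev went from 0.442 to 1.20 CPM in control to 7.66 to 13.8 in RasV12-glands (log2 4.06, adjusted p = 4.67e-05), 2.60 to 4.26 in lglRNAi;RasV12-glands (2.34, adjusted p = 0.00209) and 1.14 to 3.55 in the PP (1.58, adjusted p = 0.0179). It was also lower in lglRNAi;RasV12-glands than in RasV12-glands (log2 -1.73, adjusted p = 0.0226). The further gene that rose in RasV12-glands and the PP was htl, and Egfr fell in the RNAi groups, both named after their values were seen. The insulin receptor gene InR rose in lglRNAi;RasV12-glands (1.37, adjusted p = 0.0173), where replicate 1 (62.2 CPM) stood above the other 2 (25.6 and 30.5), and btl, the FGF receptor gene of the trachea, fell there (-1.17, adjusted p = 0.0128) from 0.740 to 1.01 CPM to 0.307 to 0.468 CPM.

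Of 13 Ras family GTPase genes 6 were tested, of which Rala, Rap1, Rheb and Ric rose in each comparison, Rheb and Ric named after their values were seen. Rala rose by 1.55, 1.56 and 1.54 (adjusted p of at most 8.74e-06) and Rap1 by 0.93, 1.02 and 0.84 (adjusted p of at most 4.90e-06). Ras64B, the second Ras gene of the fly, had the highest control level of these 3 (120 to 126 CPM) and fell by 0.49 in RasV12-glands (adjusted p = 0.000324), with -0.08 and -0.13 not past the threshold in the other groups. All 4 enzymes that process the membrane anchor of Ras rose in RasV12-glands, with Sras, the protease that trims the prenylated end, at 1.39 (adjusted p = 5.72e-05), and 3 rose in each of the other groups, where Fnta, also named afterwards, did not pass with both constructs and fell in the PP.

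The stress MAPK kinases, a parallel set of cascades with 14 genes, had 7 rises and 1 fall in RasV12-glands, 8 and none with both constructs and 8 and 1 in the PP, with medians of 0.62, 0.46 and 0.32, and hep, a kinase gene of the JNK cascade named after the fact, was the one that fell. Ranked by the largest rise in any of the 3 comparisons, puc came first, the phosphatase that restrains the JNK Basket (1.81, 2.11 and 1.12). Tak1 (1.87, 1.92 and 1.12) and wnd (1.63, 1.84 and 1.89) followed, both kinases upstream of JNK, with an adjusted p of at most 0.000397 throughout. This order did not hold in each comparison. In the PP msn, named after its values were seen, had a mean of 218 CPM against 59.5 in control, and Tak1 145 against 67.1.

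**Figure D5:**
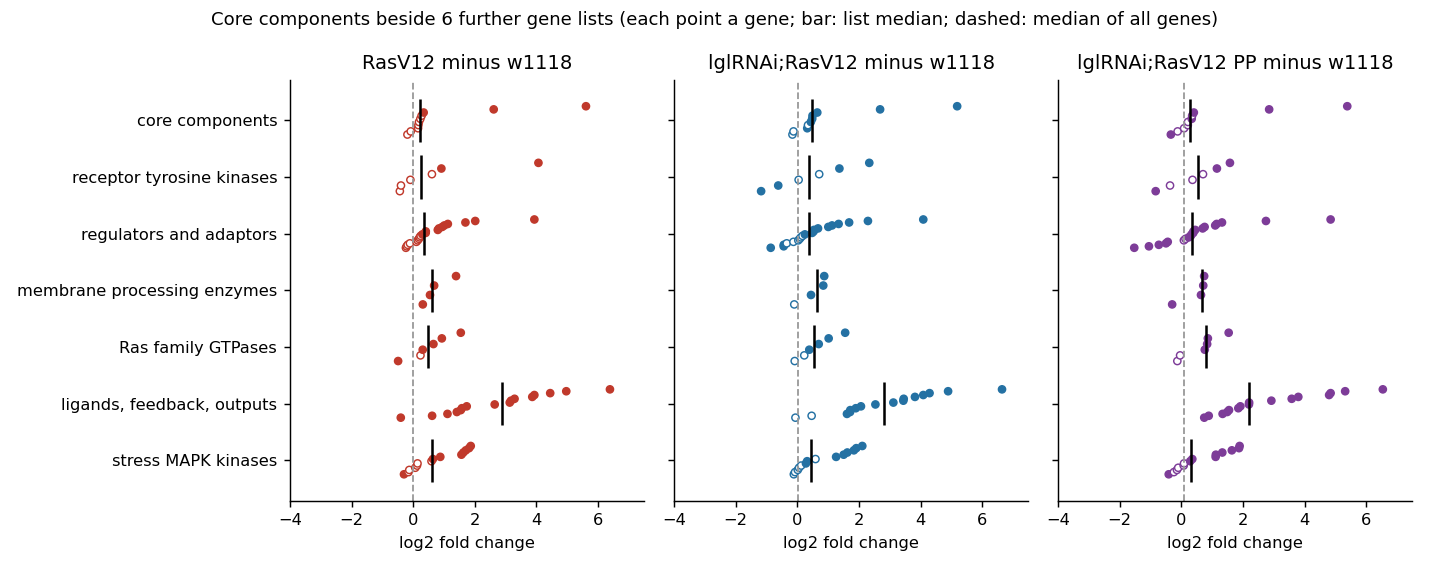
Log2 fold change from w1118-glands (horizontal axis) of the core genes and of 6 further lists, in the 3 comparisons; each point is a tested gene, filled where its adjusted p was at most 0.05, the vertical bar is the list median and the dashed line the median of all genes. The list of ligands, feedback genes and outputs had medians of 2.89, 2.83 and 2.20, and the core genes other than Ras85D and Gap1 lay between -0.34 and 0.65.

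Over the 12 libraries the log2 CPM of pre-mod(mdg4)-AE, Sugb and CG32679 were most like those of Ras85D, with Pearson's r of 0.994, 0.994 and 0.992. They rose by 4.02, 2.65 and 4.86 in RasV12-glands (adjusted p of 4.62e-08, 6.31e-09 and 6.12e-09). The r of Gap1 with Ras85D was 0.99 over the 12 libraries and -0.04 over the 9 with the construct, so that it described the step between control and RasV12 and no shared variation within the latter. All these points share libraries and groups, and the values are given as a description.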

How the data were processed

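The authors pseudoaligned poly(A)-selected, paired-end reads with kallisto 0.44.0 to Drosophila transcripts (release r6.19) and tested with sleuth 0.30.0; the deposited tables hold estimated counts and TPM per transcript, normalised by kallisto. The inputs of sleuth's test were not used here. Estimated counts were summed per gene (30279 of 30503 transcripts matched, 224 left out with 0.197 to 0.359% of counts), rounded and tested in R 4.3.3 with edgeR 4.0.16 (quasi-likelihood test, TMM, filterByExpr with a minimum count of 10, all 12 libraries in 1 fit, Benjamini-Hochberg over 9012 genes). Gene positions are those of the Ensembl annotation of dm6. A total of 27584224 to 73043536 counts puts the floor of 3 counts at 0.0411 to 0.109 CPM.

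The members and gene lists were chosen with earlier results of these data known. Named were all 10 members, up to 3 genes per further list that passed with a log2 difference of at least 1 in size, Ras64B and Rap1, and the 3 genes most like Ras85D. Other genes were named after their values were seen, where a count of 5 or fewer fell outside this rule. The genes vap, Nf1 and msn were also named after their values were seen. The sample titles number the replicates but name no pairing. Same-numbered replicates deviated together weakly in w1118- and RasV12-glands (r 0.12 to 0.21) and in w1118- and lglRNAi;RasV12-glands (0.18 to 0.22). In the other 4 comparisons the mean r was -0.14 to -0.02. Between lglRNAi;RasV12- and RasV12-glands r was -0.06, -0.32 and 0.33 for replicates 1, 2 and 3. A pairing by number was therefore not established, and the replicate number as a block was an alternative only. Alternatives were library totals, DESeq2 1.42.0, TMM without the 20 most abundant genes, no filter, the block, fits of the groups compared only and leaving out each library. The test was tried on simulated data. Promoter motifs were not analysed here.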

Additional observations from a re-analysis of the deposited data

How the results depend on the processing

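Ras85D and Gap1 kept their direction and passed in each comparison with w1118-glands under all 12 alternatives. With library totals in place of TMM the members passed were 10 in RasV12- against w1118-glands (3 with TMM), 10 in lglRNAi;RasV12- against w1118-glands (7), 3 in lglRNAi;RasV12- against RasV12-glands (2, cnk being added at an adjusted p of 0.0498), 9 in the PP against w1118-glands (5), 1 in the PP against lglRNAi;RasV12-glands (2) and 1 in the PP against RasV12-glands (0), and the signs of 2 genes turned: Raf to 0.36, 0.26 and 0.36 and Sos to 0.25, 0.30 and 0.14 in RasV12-, lglRNAi;RasV12-glands and the PP. DESeq2 passed 4 members between lglRNAi;RasV12- and RasV12-glands (2), and with no filter 1 passed there and 1 between the PP and lglRNAi;RasV12-glands. With the replicate block 1 member, Gap1, passed between the PP and RasV12-glands (adjusted p = 0.0458), rl passed in the PP against w1118-glands (0.0290, making 6), and 8 instead of 7 passed in lglRNAi;RasV12- against w1118-glands. A pairing by number was established in none of these. Leaving out 1 library gave 2 to 6 members in RasV12-, 6 to 7 in lglRNAi;RasV12-glands and 4 to 6 in the PP against w1118-glands, 0 to 1 between lglRNAi;RasV12- and RasV12-glands, 1 to 2 between the PP and lglRNAi;RasV12-glands and 0 to 0 between the PP and RasV12-glands. The causes were not tested. With 3 libraries a group the half-widths of the 95% intervals of the 9 members other than Ras85D were 0.18 to 0.34 on the log2 scale.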

Other observations

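The receptor gene Egfr, upstream of the core, was at 71.1 to 109 CPM in w1118-glands and 40.3 to 71.6 CPM elsewhere, and fell in lglRNAi;RasV12-glands (-0.62) and the PP (-0.83), with -0.40 not past the threshold in RasV12-glands (adjusted p = 0.0532).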
